A study of Danio rerio with 6 samples.

Results

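The genes of glycolysis and lactate production were described by name in cells sorted as Müller glia (MG), the radial glia of the retina. The study describes the sorted cells as MG and, after injury, as progenitors derived from them. The names uninjured MG, injured MG and apobec2 KD MG stand for all sorted cells of a group, with other cell types among them. The list held 10 zebrafish genes that encode hexokinases (hk1 and hk2), an aldolase (aldocb), glyceraldehyde-3-phosphate dehydrogenases (gapdh and gapdhs), phosphoglycerate kinase (pgk1), a phosphoglycerate mutase (pgam1a), an enolase (eno1a) and lactate dehydrogenases (ldha and ldhba). They were matched to the expression table by gene symbol alone. The members, and the further gene lists below, were chosen with earlier results of these data known. Their counts beside those of all genes are therefore descriptions only. Of the 10 genes, 9 had a row of their own among the 27152 gene symbols of the table. The last, pgam1a, stood only in a row shared with another gene name and was left out of the member counts.

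RNA was sequenced from GFP+ cells that had been sorted from dissociated adult zebrafish retinas, with 2 libraries in each of 3 groups. The first group, called apobec2 KD here, came from retinas that had a needle poke injury and a morpholino, an antisense oligonucleotide, against both apobec2a and apobec2b. The second, called injured, came from retinas with the needle poke injury, and its column names in the table point to a control morpholino, which the sample labels do not mention. The third, called uninjured, came from retinas without injury. Cells of both injured groups were taken 2 days after the poke. The labels give the gfap:GFP transgene, in which the glial gfap promoter drives GFP, for all 6 libraries, while the study's text gives a line with GFP under a tuba1a promoter for injured cells, so that injury, GFP line and morpholino handling cannot be told apart in either comparison with uninjured MG. A morpholino need not lower the RNA it targets, so the target's RNA does not check the labels. Nothing in the sources says that the libraries of a group came from separate fish, and p-values measure the spread between these libraries only.

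Glycolysis breaks glucose down to pyruvate in the cytosol and yields ATP and NADH. Lactate dehydrogenase turns pyruvate into lactate and regenerates the NAD+ that the glyceraldehyde-3-phosphate dehydrogenase step needs. In the mammalian retina both photoreceptors and Müller glia run glycolysis at a high rate and produce lactate even when oxygen is present, and in mice Hk2 is the hexokinase of photoreceptors.

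Levels are given in FPKM, fragments assigned to a gene scaled by transcript length and by library size, in libraries called a and b after their index in the table. FPKM over all genes summed to 946401 and 962887 in apobec2 KD libraries, to 1128958 and 1171101 in injured libraries and to 985941 and 975192 in uninjured libraries. The libraries of a group correlated at a Pearson r of 0.985 in each group on the log2 scale, as a description across genes. All 14 listed MG markers were in the table, of which apoea and slc1a3b were listed at 0 in uninjured MG, and their summed level was 3040.1 and 3035 FPKM in apobec2 KD MG, 3587 and 3860 FPKM in injured MG, and 3041 and 3198 FPKM in uninjured MG. Rod photoreceptor markers summed to more than that in every library, with 5752 and 5536 FPKM in apobec2 KD MG, 5358 and 7546 FPKM in injured MG, and 15359 and 16052 FPKM in uninjured MG. Cone photoreceptor markers summed to 3777 and 2992 FPKM in apobec2 KD MG and 6114 and 6509 FPKM in injured MG. In uninjured MG they summed to 6256 and 6075 FPKM. Inner retinal neuron markers summed to 1878 and 1902 FPKM in apobec2 KD MG and 1847 and 1784 FPKM in injured MG. Their sum was 2346 and 2456 FPKM in uninjured MG. Red blood cell markers summed to 239 and 241 FPKM in apobec2 KD MG and 268 and 675 FPKM in injured MG. Their sum was 82.1 and 108 FPKM in uninjured MG. RNA of rods, cones, inner retinal neurons and red blood cells was thus present beside that of MG in all 6 libraries. Fewer cells of a type and less RNA per cell cannot be told apart in such bulk samples. The MG sum joins markers that moved in opposite directions between groups, with counts given below.

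The members spanned a wide range of levels within each library. Gapdhs was the most abundant, with 1548 and 1639 FPKM in apobec2 KD MG, 1336 and 1280.4 FPKM in injured MG, and 1562 and 1512 FPKM in uninjured MG. Its namesake gapdh had 0.66 and 0.72 FPKM in apobec2 KD MG, 0.88 and 0.32 FPKM in injured MG, and 0.40 and 0.15 FPKM in uninjured MG. RefSeq lists the name gapdh also as a synonym of gapdhs, so that 2 zebrafish genes carry it. Hk1 exceeded hk2 in every library.

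In uninjured MG the order of mean levels was gapdhs, aldocb, eno1a, ldhba, ldha, pgk1, hk1, gapdh and hk2, and only the last pair overlapped between libraries. In injured MG eno1a stood above aldocb, with 827 and 881 FPKM for eno1a against 610.0 and 578 FPKM for aldocb, and hk2 stood above gapdh. In apobec2 KD MG the order differed from that in injured MG at ldha, which stood above ldhba, with 485 and 513 FPKM for ldha against 386 and 381 FPKM for ldhba. No neighbours in the order overlapped within injured or apobec2 KD MG.

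**Figure D1:**
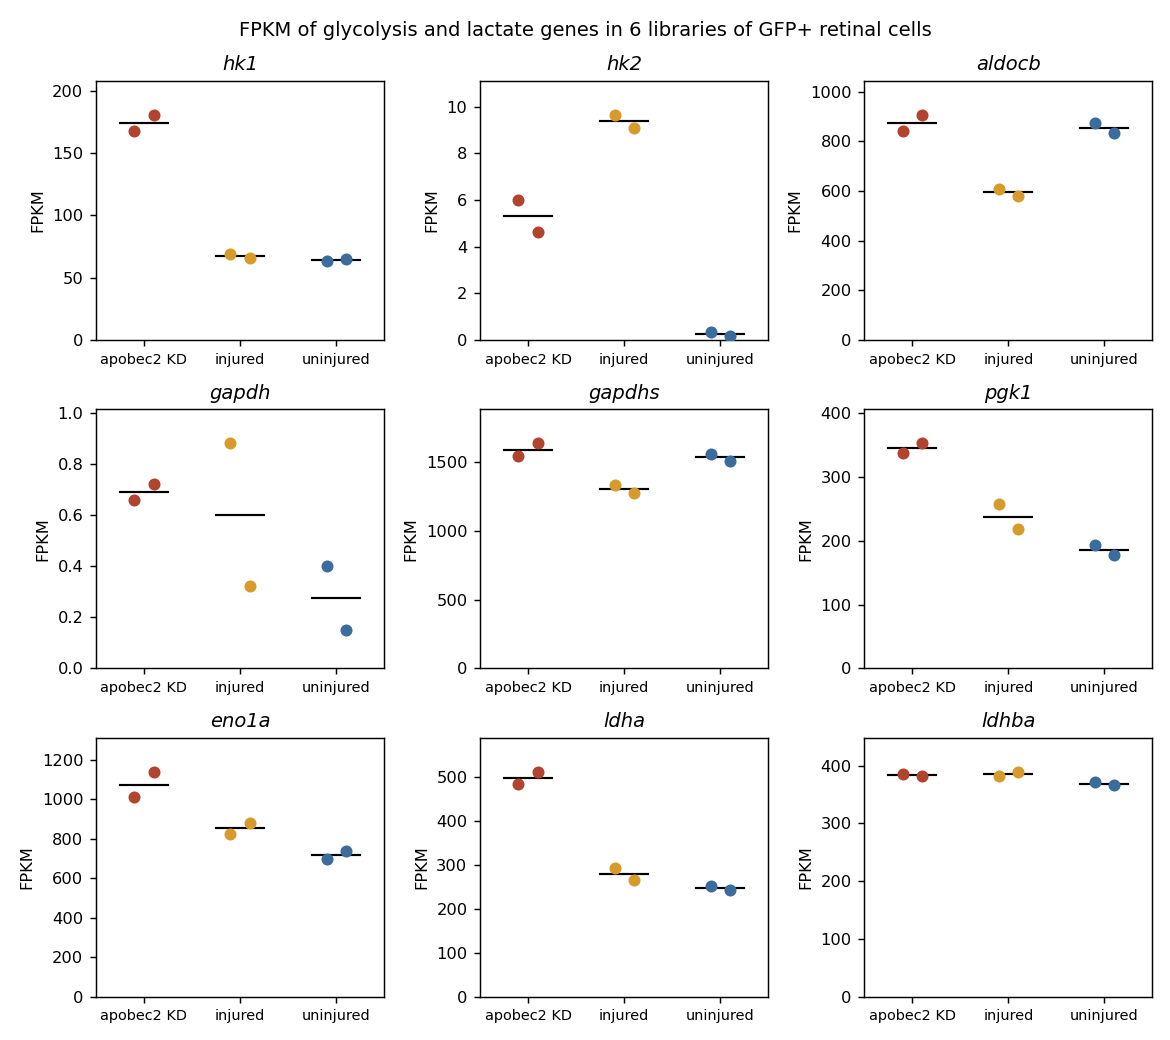
FPKM of the 9 member genes, 1 panel a gene, in each of the 6 libraries on linear axes that start at 0, with a point for each library and a line at the group mean, and apobec2 KD left, injured in the middle and uninjured on the right. The apobec2 KD points of hk1 lie at 168 and 181 FPKM, above all others, while those of ldhba lie at 386 and 381 FPKM, beside the injured points.

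The comparison of injured with uninjured MG asks which genes differ 2 days after the needle poke. Hk2 rose and aldocb fell in injured MG, and the other 6 members that could be tested did not pass the threshold. The call was a Benjamini-Hochberg adjusted p under 0.05 from limma on log2(FPKM + 1), among genes that reached 1 FPKM in 2 or more of the 4 libraries compared. On this rule 29.7% of 16849 genes rose and 19.0% fell (48.7% either way), so that 1 member higher and 1 lower of 8 was a smaller share than among all genes tested. The median difference was 0.12 on the log2 scale over the 8 members and 0.08 over all genes tested. This count and median include hk2, which passed the filter only through its level in injured MG. The ninth member, gapdh, did not reach 1 FPKM in any library and was not tested. Groups of 2 libraries fail to overlap with a probability of 0.333 where there is no difference. The share of all genes without overlap is not given here, so non-overlap below is a description only.

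Hk2, which like hk1 phosphorylates glucose at the entry to the pathway, had 9.66 and 9.09 FPKM in injured MG, against 0.32 and 0.17 FPKM in uninjured MG. The groups did not overlap, and the ratio of means was 38.3. The difference on the log2(FPKM + 1) scale was 3.06 (SE 0.11, limma adjusted p = 6.3e-04), a scale that understates changes of low genes. It passed the low-value filter only through its level in injured MG, and with either injured library left out it was not tested. Hk2 shares its listed position (chromosome 5, 15078489 to 15394058, in the build of the table, which is not stated) with the row FIGLA (2 of 2), whose highest level in any library was 0.19 FPKM.

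Aldocb, an aldolase that splits the sugar into triose phosphates, had 610.0 and 578 FPKM in injured MG, against 873 and 832 FPKM in uninjured MG. Both injured libraries lay below both uninjured ones, and the log2 difference was -0.52 (SE 0.097, limma adjusted p = 0.015). With any 1 library left out the adjusted p was 0.052 to 0.075, and the call was lost each time. The groups did not overlap for gapdhs, which was lower in injured MG at 1308 ± 39.6 FPKM, against 1537 ± 35.2 FPKM in uninjured MG (SD, n = 2), but its log2 difference of -0.23 did not pass (limma adjusted p = 0.11).

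Pgk1 and eno1a, of the later steps, did not pass the test. Pgk1, which makes ATP in the pay-off phase, had 257 and 218 FPKM in injured MG, against 193 and 178 FPKM in uninjured MG (log2 difference 0.35, limma adjusted p = 0.082). Eno1a, which makes phosphoenolpyruvate, had 827 and 881 FPKM in injured MG, against 696 and 738 FPKM in uninjured MG (log2 difference 0.25, limma adjusted p = 0.10). The groups did not overlap for either gene.

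For hk1 the log2 difference was 0.07 (limma adjusted p = 0.57), with 68.6 and 65.6 FPKM in injured MG, against 63.0 and 64.7 FPKM in uninjured MG. Ldha, the A subunit of lactate dehydrogenase, had 293 and 266 FPKM in injured MG, against 251 and 244 FPKM in uninjured MG (log2 difference 0.17, limma adjusted p = 0.23). Ldhba, a B subunit, had 383 and 389.5 FPKM in injured MG, against 371 and 366 FPKM in uninjured MG (log2 difference 0.07, limma adjusted p = 0.57). The groups did not overlap for these 3 genes, and quantile scaling turned the sign of each difference, as it did for eno1a.

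Markers of other cell types differed between injured and uninjured MG as well. Rod markers fell in 14 of 14, with the sums given above, and microglia or macrophage markers rose in 10 of 13, to a sum of 357 and 371 FPKM in injured MG, against 135 and 128 FPKM in uninjured MG. Cell cycle genes rose in 15 of 15 and summed to 261 and 297 FPKM in injured MG, against 40.0 and 40.5 FPKM in uninjured MG. Cone markers rose in 4 and fell in 6 of 14, and pigment epithelium markers rose in 6 of 6, among them rlbp1b, also an MG marker. Inner retinal neuron markers rose in 1 and fell in 4 of 11, and red blood cell markers rose in 2 of 2. The MG markers themselves rose in 6 and fell in 6 of 12 tested, with gfap at 1.48 and glula at -1.41 on the log2 scale. The part of these shifts in the rise of hk2 and the fall of aldocb was not tested.

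Knockdown of apobec2 in injured retinas came with higher levels of genes at both ends of the pathway. Hk1, aldocb and ldha rose in apobec2 KD MG relative to injured MG, and 0 members fell (1, hk2, at an unadjusted p under 0.05). The comparison sets injured MG with apobec2 morpholinos against injured MG whose control morpholino is known only from column names. If that group had no morpholino, apobec2 knockdown and morpholino handling cannot be told apart here either. Among 16680 genes tested, limma called 3.14% higher and 6.24% lower (9.37% either way), so 3 of 8 members higher was a larger share than among all genes. The median log2 difference was 0.44 over the 8 members and -0.02 over all genes tested, and the difference was positive for 6 of the 8, with hk2 and ldhba negative, the last of these positive under quantile or median of ratios scaling.

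Hk1 (chromosome 13, 23113099 to 23148025) showed the largest change of the members. It had 168 and 181 FPKM in apobec2 KD MG, against 68.6 and 65.6 FPKM in injured MG. The apobec2 KD libraries stood far above the others, at 2.60 times the mean of injured MG. The log2 difference was 1.36 (SE 0.11, limma adjusted p = 0.0065). It kept its call with apobec2 KD library a left out (adjusted p = 0.043) and lost it with each of the other 3 left out (0.056 to 0.073), at log2 differences of 1.31 to 1.42.

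Ldha (chromosome 25, 25749746 to 25758098) had 485 and 513 FPKM in apobec2 KD MG, against 293 and 266 FPKM in injured MG. Both apobec2 KD libraries were above both injured ones, with a ratio of means of 1.79. The log2 difference was 0.84 (SE 0.11, limma adjusted p = 0.021), and it was 0.77 to 0.90 with 1 library left out, where the adjusted p was 0.088 to 0.13. Ldhba, by contrast, had 386 and 381 FPKM in apobec2 KD MG, against 383 and 389.5 FPKM in injured MG, and overlapped (log2 difference -0.01, SE 0.098, limma adjusted p = 0.96).

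Aldocb (chromosome 21, 38444344 to 38474972) had 841 and 907 FPKM in apobec2 KD MG, against 610.0 and 578 FPKM in injured MG. The apobec2 KD libraries lay above both injured ones, and the log2 difference from injured MG was 0.56 (SE 0.11, limma adjusted p = 0.048). The call stood near the threshold. It was lost with each library left out (adjusted p = 0.12 to 0.20) and held in 6 of 10 alternative settings, and it was lost in the fit with a block for library kind a or b (adjusted p = 0.082, log2 difference 0.56).

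The remaining members did not pass. Pgk1 had 337 and 353 FPKM in apobec2 KD MG, against 257 and 218 FPKM in injured MG, which did not overlap (log2 difference 0.54, limma adjusted p = 0.070). Eno1a had 1010.0 and 1140 FPKM in apobec2 KD MG, against 827 and 881 FPKM in injured MG (log2 difference 0.33, limma adjusted p = 0.15). Gapdhs had 1548 and 1639 FPKM in apobec2 KD MG, against 1336 and 1280.4 FPKM in injured MG (log2 difference 0.28, limma adjusted p = 0.15). The groups did not overlap for these 3 genes. Hk2 had the lowest log2 difference of the 8 members, with 6.0 and 4.64 FPKM in apobec2 KD MG, against 9.66 and 9.09 FPKM in injured MG (log2 difference -0.72, SE 0.14, limma adjusted p = 0.051).

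Levels of other cell types moved with this comparison as well. Microglia or macrophage markers fell in 12 of 13 tested and summed to 116 and 98.7 FPKM in apobec2 KD MG, against 357 and 371 FPKM in injured MG. Cell cycle genes fell in 12 of 15 and summed to 132 and 114 FPKM in apobec2 KD MG, against 261 and 297 FPKM in injured MG. Cone photoreceptor markers fell in 10 of 14 and summed to 3777 and 2992 FPKM in apobec2 KD MG, against 6114 and 6509 FPKM in injured MG. Of 14 rod markers limma called 0, with 1 at an unadjusted p under 0.05. The same held for 11 inner retinal neuron markers, with 0 called and 1 lower at an unadjusted p under 0.05, and 0 of 3 red blood cell markers were called. Pigment epithelium markers rose in 0 and fell in 3 of 6 tested, and MG markers rose in 1 and fell in 2 of 13 tested. The part of these shifts in the rise of hk1, aldocb and ldha was not tested.

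Compared with uninjured MG, apobec2 KD MG had more RNA of most members. Hk1, hk2, pgk1, eno1a and ldha rose, 0 fell (0 also at an unadjusted p under 0.05), and the log2 difference was positive for all 8 tested, though not for aldocb, gapdhs and ldhba under median of ratios scaling or ldhba under quantile scaling. Among 16423 genes limma called 22.9% higher and 13.9% lower (36.9% either way). The count of 5 of 8 higher was a larger share than among all genes tested, and the median log2 difference was 0.74 over the members and 0.07 over all genes. The member count and median include hk2, which passed the filter only through its level in apobec2 KD MG. Rod markers fell in 14 of 14 in this comparison, cone markers fell in 11 of 14 and cell cycle genes rose in 13 of 15. Pigment epithelium markers rose in 5 of 6, and microglia or macrophage markers rose in 4 and fell in 2 of 11. MG markers rose in 5 and fell in 5 of 13. Inner retinal neuron markers rose in 1 and fell in 4 of 11, and red blood cell markers rose in 2 of 2. The part of all these markers in the member calls was not tested. Each pair of the 3 comparisons shares the libraries of 1 group, so that their values are not independent.

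Hk1 stood at 168 and 181 FPKM in apobec2 KD MG, against 63.0 and 64.7 FPKM in uninjured MG, which is 2.73 times the mean (log2 difference 1.43, SE 0.10, limma adjusted p = 0.0018). Hk2 had 6.0 and 4.64 FPKM in apobec2 KD MG, against 0.32 and 0.17 FPKM in uninjured MG (log2 difference 2.34, SE 0.15, limma adjusted p = 0.0015). Neither gene's groups overlapped, and hk2 again passed the filter only through its level in apobec2 KD MG.

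Ldha had 485 and 513 FPKM in apobec2 KD MG, against 251 and 244 FPKM in uninjured MG (ratio of means 2.01, log2 difference 1.01, limma adjusted p = 0.0036). Pgk1 (chromosome 21, 36771668 to 36787616) had 337 and 353 FPKM in apobec2 KD MG, against 193 and 178 FPKM in uninjured MG (ratio of means 1.86, log2 difference 0.89, limma adjusted p = 0.0052). Eno1a (chromosome 23, 22950618 to 22972140) had 1010.0 and 1140 FPKM in apobec2 KD MG, against 696 and 738 FPKM in uninjured MG (ratio of means 1.5, log2 difference 0.58, limma adjusted p = 0.020). These 3 did not overlap, and eno1a lost its call with each library left out (adjusted p = 0.059 to 0.088), while hk1, pgk1 and ldha kept theirs each time.

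Aldocb, gapdhs and ldhba were close to the uninjured level in apobec2 KD MG. Aldocb averaged 874 ± 46.5 FPKM in apobec2 KD MG and 853 ± 29.4 FPKM in uninjured MG (SD, n = 2), with a log2 difference of 0.04 (limma adjusted p = 0.81). The same held for gapdhs at 0.05 (adjusted p = 0.72) and ldhba at 0.06 (adjusted p = 0.67). The groups overlapped for aldocb and gapdhs and not for ldhba. A p that misses the threshold does not show that these levels are alike. Under a rule of at least a 2-fold difference in means with a mean above 5 FPKM, the members called were hk1, hk2 and ldha higher in apobec2 KD than in uninjured MG, hk1 higher in apobec2 KD than in injured MG, and hk2 higher in injured than in uninjured MG. Of all 27152 symbols the rule called 1360.0 higher and 694 lower in the first of these comparisons, 237 higher and 560.0 lower in the second and 2036 higher and 818 lower in the third.

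**Figure D2:**
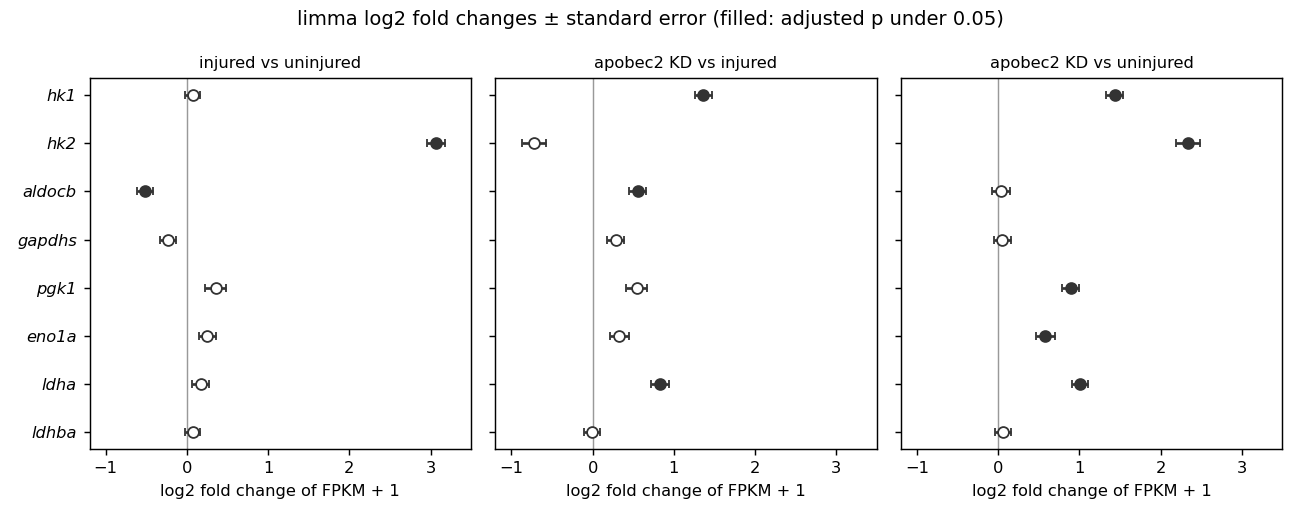
Log2 difference of the 8 tested members on the log2(FPKM + 1) scale with bars of 1 standard error, in 3 panels from left to right, injured against uninjured, apobec2 KD against injured and apobec2 KD against uninjured MG, with filled points for calls. Hk1 stands at 0.07, 1.36 and 1.43 in that order, while hk2 stands at 3.06, -0.72 and 2.34.

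Paralogs that catalyse the same step kept unequal shares of it. The 2 hexokinase members and their relatives gck and hkdc1 made up the hexokinase step. Hk1 held 95.9% and 96.9% of the summed FPKM of the step in apobec2 KD, 86.7% and 87.1% in injured and 98.8% and 99.0% in uninjured MG. In injured MG hk2 reached its highest share, 12.2% and 12.1%, against 0.502% and 0.260% in uninjured MG.

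The ratio of hk2 to hk1 in FPKM was 0.0357 and 0.0257 in apobec2 KD, 0.141 and 0.139 in injured and 0.00508 and 0.00263 in uninjured MG. The groups did not overlap in any comparison. The mean log2 ratio differed by 5.26 between injured and uninjured MG, by -2.21 between apobec2 KD and injured MG and by 3.05 between apobec2 KD and uninjured MG. An exact two-sided permutation test with 2 libraries against 2 cannot give a p under 0.333, which was its value in each of the 3 comparisons (0.429 adjusted over all 9 paralog comparisons).

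The lactate dehydrogenase subunits changed order in apobec2 KD MG. The ratio of ldhba to ldha was 0.795 and 0.744 in apobec2 KD, 1.31 and 1.46 in injured MG, and 1.48 and 1.5 in uninjured MG. It was below 1 in both apobec2 KD libraries and above 1 in both injured and both uninjured libraries. The mean log2 ratio differed by -0.85 between apobec2 KD and injured MG, by -0.95 between apobec2 KD and uninjured MG and by -0.10 between injured and uninjured MG, at the smallest exact p of 0.333 each. Ldhbb, another B subunit, stayed at 26.5 FPKM or less in every library.

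The gapdhs over gapdh ratio lay between 1519 and 10083, and its groups overlapped in both comparisons with injured MG (exact p = 1.00 for apobec2 KD against injured MG and 0.667 for injured against uninjured MG), with gapdh below 1 FPKM in all 6.

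Within the aldolase step, aldocb held 64.8% and 65.2% in apobec2 KD, 63.3% and 64.7% in injured and 75.3% and 75.8% in uninjured MG, and aldoaa held most of the rest. Within the enolase step eno1a held 78.0% and 81.5% in apobec2 KD, 76.2% and 77.8% in injured and 61.7% and 63.0% in uninjured MG. Eno1b and eno2, the enolase family members that took most of the rest, held 21.6% and 21.3%, and 15.2% and 14.5%, of the step in uninjured MG. The eno1a share was larger in all 4 libraries of injured retinas than in the uninjured libraries.

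**Figure D3:**
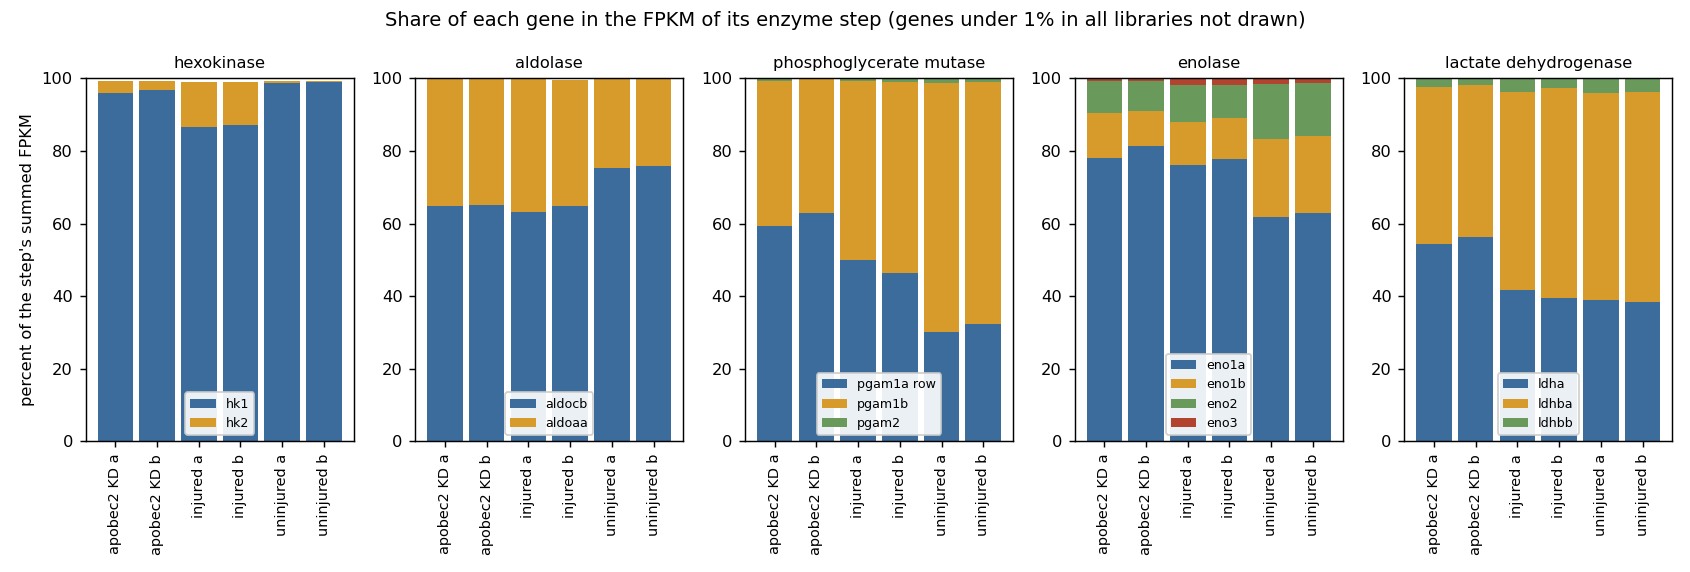
Share of each step's summed FPKM, in percent, carried by each paralog in the 6 libraries, with a stacked bar a library from 0 to 100, genes under 1% in all libraries not drawn, and apobec2 KD left, injured in the middle and uninjured on the right. Eno1a fills 78.0% and 81.5% of the enolase bars in apobec2 KD and 61.7% and 63.0% in uninjured MG, and ldha 54.4% and 56.3% of the lactate dehydrogenase bars in apobec2 KD and 38.8% and 38.5% in uninjured MG.

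Of 30 other listed glycolysis enzymes 21 were in the table and 12 were tested in injured against uninjured MG, of which 2 rose and 4 fell. This is close to the share of all genes tested, 48.7% called either way, and with 1 library left out it was 0 to 1 higher and 2 to 3 lower. The pair called higher were eno3 (21.0 and 21.8 FPKM in injured MG, against 16.8 and 15.2 FPKM in uninjured MG, log2 difference 0.40) and PKLR, a pyruvate kinase (2.90 and 2.14 FPKM in injured MG, against 0.73 and 0.77 FPKM in uninjured MG, log2 difference 1.00). PKLR passed the filter against uninjured MG only through the injured or apobec2 KD libraries. Eno1b, eno2, tpi1a and pfkmb fell, with log2 differences of -0.93, -0.70, -0.56 and -0.65. Eno1b had 128 and 129.5 FPKM in injured MG, against 244 and 249 FPKM in uninjured MG. Eno2, the neuronal enolase of mammals, had 109.8 and 100.6 FPKM in injured MG, against 172 and 169.8 FPKM in uninjured MG. The eno1b row overlaps a 5S rRNA row of up to 118.9 FPKM in the table.

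In apobec2 KD MG only eno3 passed against injured MG, and it fell (10.5 and 9.74 FPKM in apobec2 KD MG, against 21.0 and 21.8 FPKM in injured MG, log2 difference -1.01). The count was 0 higher and 1 lower of 11, against 3.14% higher and 6.24% lower among all genes. Tpi1b, a triose phosphate isomerase, had 343 and 362 FPKM in apobec2 KD MG, against 252 and 233 FPKM in injured MG (limma adjusted p = 0.052), and aldoaa 456 and 483 FPKM in apobec2 KD MG, against 352 and 312 FPKM in injured MG (limma adjusted p = 0.068). Against uninjured MG 5 of 12 rose in apobec2 KD, namely gpia, aldoaa, tpi1b, pkma and PKLR, and 5 fell, namely pfkmb, pgam1b, eno1b, eno2 and eno3, with 1 to 3 higher and 0 to 2 lower when 1 library was left out. Among all genes 22.9% rose and 13.9% fell in apobec2 KD against uninjured MG. Pfkmb, a phosphofructokinase, had 2.02 and 2.17 FPKM in uninjured MG, against 0.82 and 1.14 FPKM in injured MG. In apobec2 KD MG it had 0.76 and 0.57 FPKM. Pfkmb passed the filter in both comparisons with uninjured MG only through the uninjured libraries. Pkma, the main pyruvate kinase, had 784 and 1052 FPKM in apobec2 KD MG, against 545 and 602 FPKM in uninjured MG. The tpi1b row overlaps 5 others of up to 1145 FPKM.

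Among the lactate genes, the difference of slc16a3 between apobec2 KD and injured MG was larger than that of any member. Slc16a3, a proton-linked carrier that moves lactate out of cells, had 192 and 231 FPKM in apobec2 KD MG, against 64.3 and 52.7 FPKM in injured MG. Both apobec2 KD libraries were above all others, with 39.2 and 44.9 FPKM in uninjured MG, and the ratio to injured MG was 3.61 (log2 difference 1.84, SE 0.16, limma adjusted p = 0.0087). It was the 1 gene higher of 4 tested of the lactate list (12 listed, 6 in the table) in apobec2 KD against injured MG. Among all genes 3.14% were higher there. Bsg, a partner protein of the carriers, did not pass in that comparison (log2 difference 0.32, limma adjusted p = 0.12). Ldhd, a mitochondrial D-lactate dehydrogenase, fell in injured against uninjured MG (log2 difference -0.52), the only call of 4 there. Among all genes 48.7% were called either way in injured against uninjured MG and 36.9% in apobec2 KD against uninjured MG. Slc16a3 and bsg rose and ldhd fell in apobec2 KD against uninjured MG (1 higher and 0 to 1 lower with 1 library left out).

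Genes that set glucose uptake and the flux through phosphofructokinase form a further list. In apobec2 KD against injured MG 3 of 7 rose and 1 fell, against 3.14% higher and 6.24% lower among all genes. Pfkfb3, which makes the activator of phosphofructokinase, had 296 and 305 FPKM in apobec2 KD MG, against 138 and 151 FPKM in injured MG (log2 difference 1.06, limma adjusted p = 0.012). Pfkfb4l, a relative, had 55.4 and 63.6 FPKM in apobec2 KD MG, against 24.2 and 19.8 FPKM in injured MG (log2 difference 1.40, limma adjusted p = 0.013).

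The glucose transporter slc2a1b had 30.4 and 35.2 FPKM in apobec2 KD MG, against 11.9 and 12.7 FPKM in injured MG (log2 difference 1.34, limma adjusted p = 0.0092), and pfkfb1 fell (log2 difference -0.90). Pfkfb1 had 0.44 and 0.94 FPKM in apobec2 KD MG, against 2.07 and 2.18 FPKM in injured MG and 2.27 and 2.01 FPKM in uninjured MG, so it passed the filter in both comparisons only through the group where it is high. Slc2a1a, the paralog of slc2a1b, had 38.1 and 36.3 FPKM in apobec2 KD MG, against 26.3 and 35.3 FPKM in injured MG and 133 and 148 FPKM in uninjured MG. It fell in injured against uninjured MG by 2.17 on the log2 scale (limma adjusted p = 0.0018) and did not pass between apobec2 KD and injured MG (adjusted p = 0.33). Slc2a1b, pfkfb4l and slc2a1a fell in injured against uninjured MG and pfkfb3 rose, which made 1 higher and 3 lower of 7. Among all genes tested 29.7% rose and 19.0% fell in that comparison. In apobec2 KD against uninjured MG the shares of all genes were 22.9% higher and 13.9% lower. Against uninjured MG, apobec2 KD MG had 2 higher (pfkfb3 and slc2a1b) and 2 lower (slc2a1a and pfkfb1) of 7, and 1 to 2 each with 1 library left out.

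Genes of pyruvate entry into mitochondria were tested in the same way. Of 14 tested in apobec2 KD against injured MG 2 rose, while 3.14% of all genes did. Both are kinases that switch off pyruvate dehydrogenase. Pdk3a had 22.3 and 21.3 FPKM in apobec2 KD MG, against 9.04 and 8.89 FPKM in injured MG (log2 difference 1.19, limma adjusted p = 0.0080), and pdk4 had 7.51 and 9.55 FPKM in apobec2 KD MG, against 4.11 and 3.57 FPKM in injured MG (log2 difference 0.97, limma adjusted p = 0.030). In injured against uninjured MG pdk4, pdk1, pdp1 and pdha1b fell and dldh and dld rose, 4 lower and 2 higher of 14, close to the 48.7% called either way among all genes. Dld passed the filter against uninjured MG only through the injured or apobec2 KD libraries. With 1 library left out 2 were lower and 0 to 1 higher in injured against uninjured MG. In zebrafish dld is the symbol of the Notch ligand deltaD, which is no enzyme of this step, while dihydrolipoamide dehydrogenase has the row dldh. The counts of this list include dld. Without it, dldh was the only gene called higher in injured against uninjured MG, and pdk3a the only one in apobec2 KD against uninjured MG. Pdk3a and dld rose and pdk1 and pdha1b fell in apobec2 KD against uninjured MG.

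The pentose phosphate pathway branches off glycolysis and makes NADPH and ribose. In injured against uninjured MG 5 of 7 rose and 0 fell (0 also at an unadjusted p under 0.05), with a median log2 difference of 0.81. Among all genes tested 29.7% rose and 19.0% fell there. Pgd had 54.4 and 47.9 FPKM in injured MG, against 18.5 and 19.9 FPKM in uninjured MG (log2 difference 1.37, limma adjusted p = 0.0020), and taldo1, rpe, rpia and tkt rose by 1.23, 1.11, 0.81 and 0.58 on the log2 scale. Between apobec2 KD and injured MG limma called 0 of 7 (3 lower at an unadjusted p under 0.05), with a median log2 difference of -0.45. Relative to uninjured MG 4 of 7 rose in apobec2 KD, pgd, taldo1, rpia and rpe, against 22.9% of all genes. With 1 library left out 1 to 3 were higher there, and 3 to 4 in injured against uninjured MG.

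Of the gluconeogenesis genes, 14 listed and 8 in the table, 1 rose (G6PC3) and 1 fell (g6pca.1) of 4 tested in injured against uninjured MG (0 to 1 each with 1 library left out), and 0 of 3 passed in apobec2 KD against injured MG (1 lower at an unadjusted p under 0.05). G6pca.1 also fell in apobec2 KD against uninjured MG, the only call of 4, which did not hold with each library left out. It passed the filter in both comparisons only through the uninjured libraries. Among all genes 48.7% were called either way in injured against uninjured MG, 9.37% in apobec2 KD against injured MG and 36.9% in apobec2 KD against uninjured MG. The counts of this short list did not stand apart from these shares.

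The Hif factors control transcription of glycolysis genes. The oxygen sensing list holds Hif subunits, genes that act on Hif proteins, and Hif target genes. In apobec2 KD against injured MG 9 of 18 tested rose and 0 fell (0 also at an unadjusted p under 0.05). The median log2 difference was 0.69. Among all genes 3.14% were called higher and 6.24% lower, and the part in this list of the shifts of microglia, cone and cell cycle genes given above was not tested. Ankrd37, a known Hif target, had 54.6 and 63.6 FPKM in apobec2 KD MG, against 10.9 and 9.55 FPKM in injured MG (ratio of means 5.77, log2 difference 2.42, limma adjusted p = 0.0039). Egln3, a prolyl hydroxylase that marks Hif proteins for destruction, had 74.7 and 78.3 FPKM in apobec2 KD MG, against 22.4 and 14.4 FPKM in injured MG (log2 difference 2.03, limma adjusted p = 0.014).

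The other 7 that rose were vegfab and vegfaa, growth factors of blood vessels (1.66 and 0.82 on the log2 scale), bnip3lb, a mitophagy receptor (1.43), hif1al, a Hif alpha subunit (1.38), egln2, a prolyl hydroxylase (1.33), hif1an, a Hif hydroxylase (0.90), and vhl, which tags Hif proteins for degradation (0.88). Hif1aa, epas1a, epas1b, arnt and arnt2, further Hif subunit genes, did not pass in apobec2 KD against injured MG. Hif1ab, the more abundant of the listed hif1a genes, had 164 and 161 FPKM in apobec2 KD MG, against 142 and 144 FPKM in injured MG and did not pass. In injured against uninjured MG 2 of 18 of these genes rose, ankrd37 and egln3, and 7 fell, namely hif1aa, epas1a, epas1b, arnt, vegfab, bnip3 and bnip3la, with 0 to 1 higher and 3 to 5 lower when 1 library was left out. Relative to uninjured MG, 10 of 17 rose in apobec2 KD MG and 3 fell (epas1a, epas1b and bnip3la), with 7 to 8 higher and 0 to 2 lower when 1 library was left out. Among all genes tested 29.7% rose and 19.0% fell in injured against uninjured MG (48.7% either way, close to the share of this list). In apobec2 KD against uninjured MG 22.9% of all genes rose and 13.9% fell. The rows of epas1b and arnt overlap others in the table. With 1 library left out, 0 to 3 of this list, 0 to 1 of the uptake and flux list, 0 to 1 of the lactate list and 0 of the pyruvate entry list were called higher in apobec2 KD against injured MG.

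**Figure D4:**
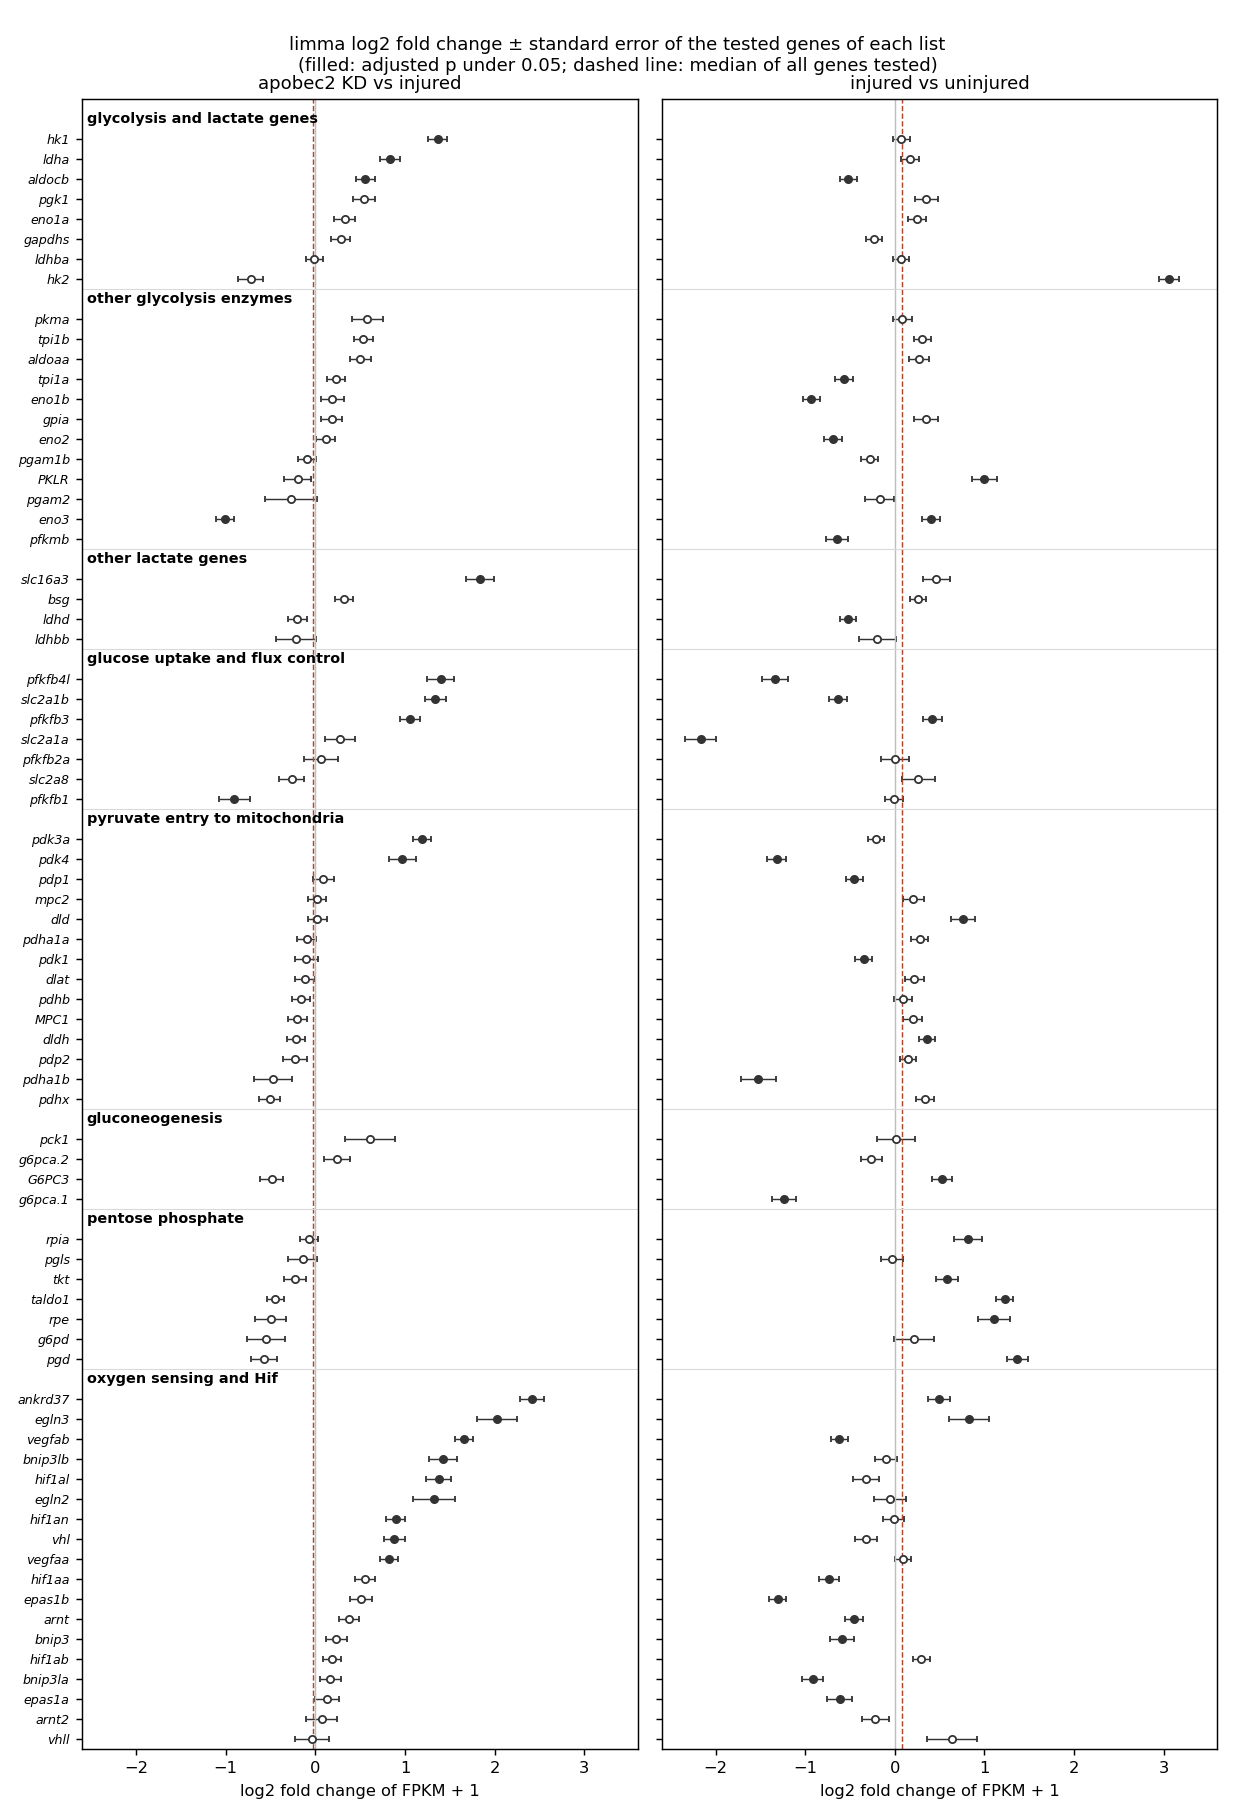
Log2 differences on the log2(FPKM + 1) scale of the tested members and pathway list genes, grouped by list, with apobec2 KD against injured MG left and injured against uninjured MG right, filled where called, with bars of 1 standard error and a dashed line at the median of all genes tested. In the left panel ankrd37 (2.42), egln3 (2.03) and slc16a3 (1.84) lie farthest to the right, and in the right panel slc2a1a (-2.17) lies farthest to the left.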

How the data were processed

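Total RNA from FACS-purified GFP+ retinal cells was sequenced on an Illumina instrument, and 6 libraries in 3 groups were used. The authors deposited 1 table of FPKM per gene and library; the submitters' processing notes name CASAVA, TopHat and Bowtie2 without versions, and the layout is that of Cuffdiff, whose version is not given in the sources used here, nor is the genome build or the annotation. No counts were used, so the depth was not assessed and no interval rests on it. The table lists each of 30689 gene rows 3 times with the same FPKM per library, and 1 listing was kept. A further 6 per-library columns, headed as externally scaled fragments, were not used. The columns of group means, fold changes, p-values and q-values of the authors' comparisons were not used either.

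Rows of 1 symbol were summed to 27152 symbols. log2(FPKM + 1) was fitted for the 4 libraries of each pair of groups with limma 3.58.1 (R 4.3.3; lmFit, eBayes, Benjamini-Hochberg over all genes tested, threshold 0.05), on genes that reached 1 FPKM in 2 or more of the 4. Ratios of paralogs were compared with exact two-sided permutation tests. Summaries and figures used Python 3.11.15, NumPy 2.4.6, pandas 2.3.3, SciPy 1.17.1 and Matplotlib 3.10.9. The fit was also run on simulated data with independent noise for each gene and no effect of library kind. No result here rests on that run. The members and lists were chosen with earlier results of these data known. Named genes were the members, every list gene past the threshold in any comparison and paralogs of members. No sequences are shown. Alternatives were a pseudocount of 0.1, quantile or median of ratios scaling, eBayes with a prior variance trend, all 6 libraries in 1 fit, other filters, other handling of rows, a block for library kind, and leaving out each library.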

Additional observations from a re-analysis of the deposited data

How the results depend on the processing

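Of 332 alternative fits of member differences, 285 kept direction and call, 10 gained and 23 lost a call, and 14 changed sign. A member not called in either fit counts as kept. The prior variance trend, the single fit, the filters, the row settings and the block leave a member's difference as it is. In those fits only the call could change. No paired analysis was possible because no column is marked with the labels' replicate numbers. The block for library kind a or b used the table's own index instead, and among the members it changed 1 call, aldocb in apobec2 KD against injured MG (adjusted p = 0.082). In that comparison it left 319 genes higher and 812 lower among all genes, against 523 and 1040.0. Leaving out 1 library gave 0 to 1 members higher and 0 lower in injured against uninjured MG, 0 to 1 higher and 0 lower in apobec2 KD against injured MG, and 3 to 4 higher and 0 lower in apobec2 KD against uninjured MG. In those refits of apobec2 KD against injured MG limma called only 5 to 48 genes higher among all genes, against 523 with all libraries, and 259 (no filter) to 867 (all 6 libraries in 1 fit) in the other settings. Libraries a and b differed in the median level of 5S rRNA rows above 0, 19.8 to 26.4 FPKM in a and 0.51 to 0.94 FPKM in b. The causes of the changes below were not tested.

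With quantile scaling, which put the median difference of all genes between injured and uninjured MG at -0.11 against 0.08, 3 members were lower in injured against uninjured MG (aldocb, gapdhs at -0.58 and ldhba at -0.57), 6 were higher in apobec2 KD against injured MG, and 1, ldhba (-0.37), was lower in apobec2 KD against uninjured MG. A trend in the prior variance gave 2 members higher in injured against uninjured MG, with pgk1 added. Hk2 was the 1 member lower in apobec2 KD against injured MG with that trend, with all 6 libraries in 1 fit and with the filter of a mean above 5 FPKM.

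Signs turned in small differences. In injured against uninjured MG, quantile scaling gave -0.089 for hk1, -0.25 for eno1a, -0.30 for ldha and -0.57 for ldhba, and median of ratios scaling gave -0.024 for hk1 and -0.027 for ldhba. In apobec2 KD against injured MG ldhba was at 0.19 with quantile scaling, 0.017 with median of ratios and 0.0020 without injured library b, the highest of -0.023 to 0.0020 with 1 library left out. In apobec2 KD against uninjured MG median of ratios gave -0.056 for aldocb, -0.041 for gapdhs and -0.034 for ldhba, quantile scaling -0.37 for ldhba, and aldocb was at -0.019 without apobec2 KD library b, the lowest of -0.019 to 0.090 with 1 library left out.

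For the log2 ratio of hk2 to hk1 a pseudocount of 0.1 gave a difference of 4.74 between injured and uninjured MG. Quantile scaling gave -0.20 for ldhba to ldha between injured and uninjured MG, -1.03 between apobec2 KD and uninjured MG, and 0.0094 for gapdhs to gapdh between apobec2 KD and injured MG. With 1 library left out, the difference for gapdhs to gapdh ran from -0.79 to 0.61 (apobec2 KD against injured), -2.13 to -0.76 (apobec2 KD against uninjured) and -2.05 to -0.65 (injured against uninjured). For hk2 to hk1 it ran from -2.44 to -1.97, 2.58 to 3.53 and 4.78 to 5.73 in the same order, and for ldhba to ldha from -0.93 to -0.77, -1.0 to -0.90 and -0.18 to -0.02. The number of genes called was also compared with the main fit for each list, direction, comparison and alternative setting. Of these 588 counts 443 were equal or close to the main count, 20 were above it and 125 below it. Counts of 0 in both fits are among the 443, such as pentose phosphate genes lower in injured against uninjured MG.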

Other observations

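Rows chosen after their values were seen fill gaps in the pathway list. Beside pfkma and pfkmb, the table names further rows of phosphofructokinase, the committed step of glycolysis, in capitals. PFKP (1 of 2) had 183 and 186 FPKM in apobec2 KD MG, against 109 and 98.5 FPKM in injured MG (log2 difference 0.83, limma adjusted p = 0.020), and 106 and 99.4 FPKM in uninjured MG. PFKP (2 of 2) had 86.7 and 89.0 FPKM in apobec2 KD MG, against 47.5 and 44.1 FPKM in injured MG (log2 difference 0.93, limma adjusted p = 0.015), and 64.3 and 75.7 FPKM in uninjured MG, so it fell after injury (log2 difference -0.60, limma adjusted p = 0.020). PFKL (2 of 2) also fell after injury (log2 difference -0.80, limma adjusted p = 0.0041), in a row that overlaps 14 others, while PFKL (1 of 2) passed in neither comparison with injured MG. Pfkfb4, a relative of pfkfb3, passed in no comparison. It had 22.86 and 23.75 FPKM in apobec2 KD MG, against 16.06 and 16.22 FPKM in injured MG (log2 difference 0.50, limma adjusted p = 0.0503).

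The row that holds pgam1a together with the name BX072537.1, a phosphoglycerate mutase, had 133 and 147 FPKM in apobec2 KD MG, against 94.0 and 83.9 FPKM in injured MG (log2 difference 0.65, limma adjusted p = 0.045) and 49.7 and 55.7 FPKM in uninjured MG (log2 difference of injured to uninjured MG 0.74, limma adjusted p = 0.0096). The levels of the 3 groups did not overlap. It took 59.3% and 62.8% of the summed FPKM of the mutase step in apobec2 KD, 50.0% and 46.4% in injured and 30.1% and 32.3% in uninjured MG. Pgam1b took most of the rest.

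Other lactate and pyruvate carriers differed in pattern from slc16a3. Slc16a1 had 12.9 and 12.9 FPKM in apobec2 KD MG, against 12.5 and 12.5 FPKM in injured MG, and 22.8 and 23.5 FPKM in uninjured MG, and it fell in injured against uninjured MG (log2 difference -0.84, limma adjusted p = 0.0036). The row SLC16A8,slc16a8 had 54.1 and 49.5 FPKM in apobec2 KD MG, against 57.7 and 56.4 FPKM in injured MG, and 14.6 and 15.6 FPKM in uninjured MG, and it rose in injured against uninjured MG (log2 difference 1.85, limma adjusted p = 8.4e-04). In mammals SLC16A8 is the lactate carrier of the retinal pigment epithelium. Pigment epithelium markers summed to 80.1 and 113 FPKM in apobec2 KD MG and 144 and 163 FPKM in injured MG. In uninjured MG the sum was 39.4 and 41.9 FPKM. These sums include rlbp1b, which is also on the MG marker list. Rlbp1b had 36.13 and 49.26 FPKM in apobec2 KD MG and 51.54 and 59.35 FPKM in injured MG. It made up most of the sum in uninjured MG, at 28.86 and 33.69 FPKM. The part of pigment epithelium in the carrier levels was not tested.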
